A study of Mus musculus with 12 samples.

Results

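The chromatin of 8 genes of naive pluripotency, Esrrb, Zfp42, Klf2, Klf4, Klf5, Tfcp2l1, Tbx3 and Prdm14, was described in mouse embryonic fibroblasts (MEFs) and in cells undergoing reprogramming, with and without the zinc finger gene Zfp266. The members were named as known factors of this state, 8 of 21911 protein coding genes, and the rule used no measured value, although earlier results of these data were known when they were named. Each locus was the gene body with 20 kb on each side, on build GRCm38 with GENCODE M21 genes, and the 8 loci held 99 of the 273256 intervals formed by merging the 4 groups' peak lists. Open chromatin was read by Omni-ATAC-seq, in which a transposase inserts adapters into accessible DNA, in 12 libraries of 50000 sorted cells each.

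The cells were MEFs from E12.5 embryos, strain 129 by the labels, and were transduced with a non-targeting control sgRNA or an sgRNA against Zfp266 (KO). The MEF control and MEF KO groups stayed in fibroblast medium. The reprogramming control and reprogramming KO groups received doxycycline (300 ng/ml) together with vitamin C (10 µg/ml) in embryonic stem cell medium, which holds LIF and lacks the FGF2 and heparin of the fibroblast medium, starting 24 hours after transduction, and were sorted for mOrange, the reporter of the induced factors. Harvest was 96 hours after transduction in all groups, which was 72 hours after induction of OCT4, SOX2, KLF4 and MYC. Each of the 4 groups had 3 libraries. All groups shared the same background, with Cas9 in the Rosa26 locus, an inducible cassette of the 4 factors in the Sp3 locus and a Nanog-GFP-ires-Puro reporter. The cells came from 1 targeted embryonic stem cell line aggregated with host morulae, so the embryos are chimeras that can hold host cells. KO groups are transduced populations and not clones. According to the study's methods the ATAC-seq cells were plated as for its RNA-seq, where cells to be reprogrammed were seeded among an excess of wild-type MEFs before transduction and the MEF groups were not, so this co-culture and the induction cannot be told apart between the MEF and reprogramming groups. The cassette carries coding sequences of Klf4, Pou5f1 (which encodes OCT4), Sox2 and Myc, so reads from it cannot be told apart from reads of these genes' exons. Nothing in the labels says that libraries came from separate cultures, so tests below measure the spread between these libraries.

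Naive pluripotency is the ground state of the mouse preimplantation epiblast and of embryonic stem cells grown with leukaemia inhibitory factor (LIF). It is held by a set of transcription factors that bind each other's enhancers, several of which are switched on by LIF through STAT3. Fibroblasts silence most of these genes, and during reprogramming their enhancers open before or as the genes are expressed. ATAC-seq reads openness of DNA and not expression, and in bulk cells a larger share of open cells and a wider opening in each cell cannot be told apart.

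The values are of 2 kinds. Peak values come from 1 list per group, called on the merged replicates, and give the MACS2 fold enrichment of a peak over local background, so they have no replicate error and were not tested. Library values are read counts divided by a size factor, and were deposited only for intervals listed as differing between KO and control.

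Peak turnover between the MEF and reprogramming groups at the 8 loci was near that of all peaks, and turnover between KO and control was lower. The reprogramming control list had 60 peaks at the loci, of which 34, or 56.7% (95% Wilson interval 44.1 to 68.4), overlapped no MEF control peak, beside 55.9% of all reprogramming control peaks. Conversely 33 of 59 MEF control peaks (55.9%, 43.3 to 67.8) had no reprogramming control peak, beside 54.8% of all. In KO cells 32 of 61 reprogramming peaks (52.5%, 40.2 to 64.5) had no MEF KO peak, beside 54.9% of all, and 34 of 62 MEF KO peaks (54.8%, 42.5 to 66.6) had no reprogramming KO peak, beside 54.6% of all. The turnover at the loci was therefore near that of the whole peak lists in each direction. Intervals cover counting error only.

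Between KO and control the lists differed far less. In reprogramming, 8 of 61 KO peaks (13.1%, 6.80 to 23.8) had no control peak, beside 8.49% of all, and 7 of 60 control peaks (11.7%, 5.77 to 22.2) had no KO peak, beside 11.9% of all. With peaks kept only at a -log10 q of at least 5 in both lists, 0 of 40 reprogramming KO peaks lacked a control peak, beside 5.89% of all, and 1 of 41 control peaks a KO peak, beside 10.3% of all. In MEFs, 4 of 62 KO peaks (6.45%, 2.54 to 15.4) had no control peak, beside 6.29% of all, and 2 of 59 control peaks (3.39%, 0.935 to 11.5) had no KO peak, beside 8.02% of all. At the same q minimum the MEF shares were 4 of 40 (10.0%) and 4 of 39 (10.3%), beside 6.37% and 6.09% of all.

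**Figure D1:**
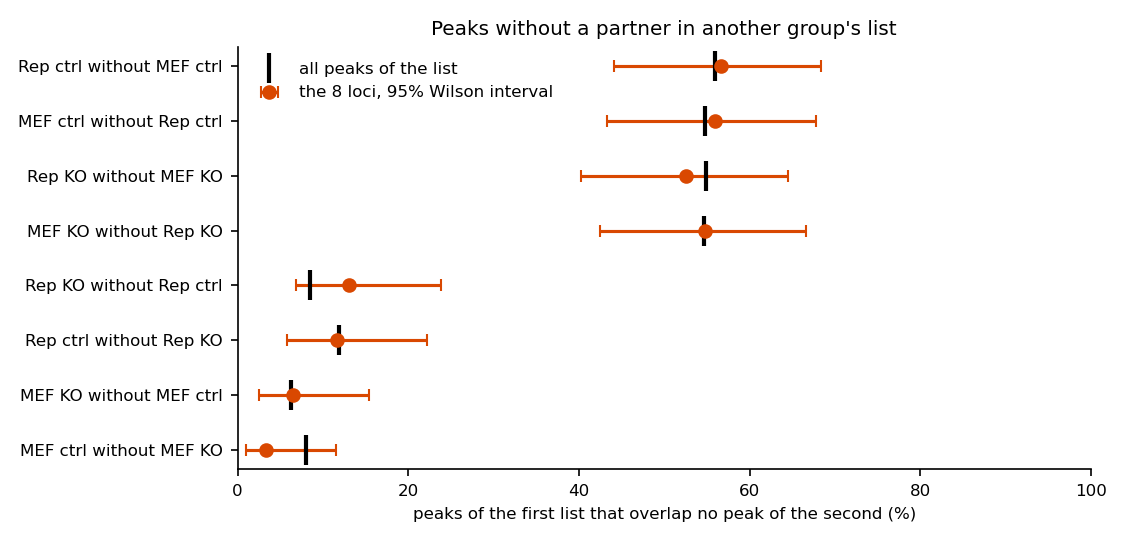
Share of peaks of one group's list that overlap no peak of another group's list by at least 1 bp, in percent (x axis), for the 8 comparisons (y axis; ctrl is control, Rep is reprogramming). Points with bars are the 8 loci with 95% Wilson intervals, black ticks are all peaks of the list, and every tick lies within the interval of its point.

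Of the 99 intervals, 26 had a peak in both reprogramming lists and neither MEF list, 28 in both MEF lists and neither reprogramming list, 24 in all 4 lists and 21 another combination. These shares were 26.3%, 28.3%, 24.2% and 21.2% of the intervals at the loci, and 27.4%, 27.5%, 24.7% and 20.3% of all merged intervals. Of 12 intervals within 1 kb of a transcription start site of a member, 8 had a peak in all 4 lists and 1 in the reprogramming lists alone, beside 66.1% and 13.7% of the 27095 merged intervals within 1 kb of a protein coding start site. Among all intervals elsewhere, 20.2% had a peak in all 4 lists, 29.0% in both reprogramming lists alone and 29.5% in both MEF lists alone. Of 31 intronic intervals, 4 had a peak in all 4 lists, 9 in both reprogramming lists alone and 12 in both MEF lists alone. Upstream of the genes 12 of 27 intervals were in both MEF lists alone and 6 in both reprogramming lists alone, and downstream the counts were 4 and 8 of 27.

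**Figure D2:**
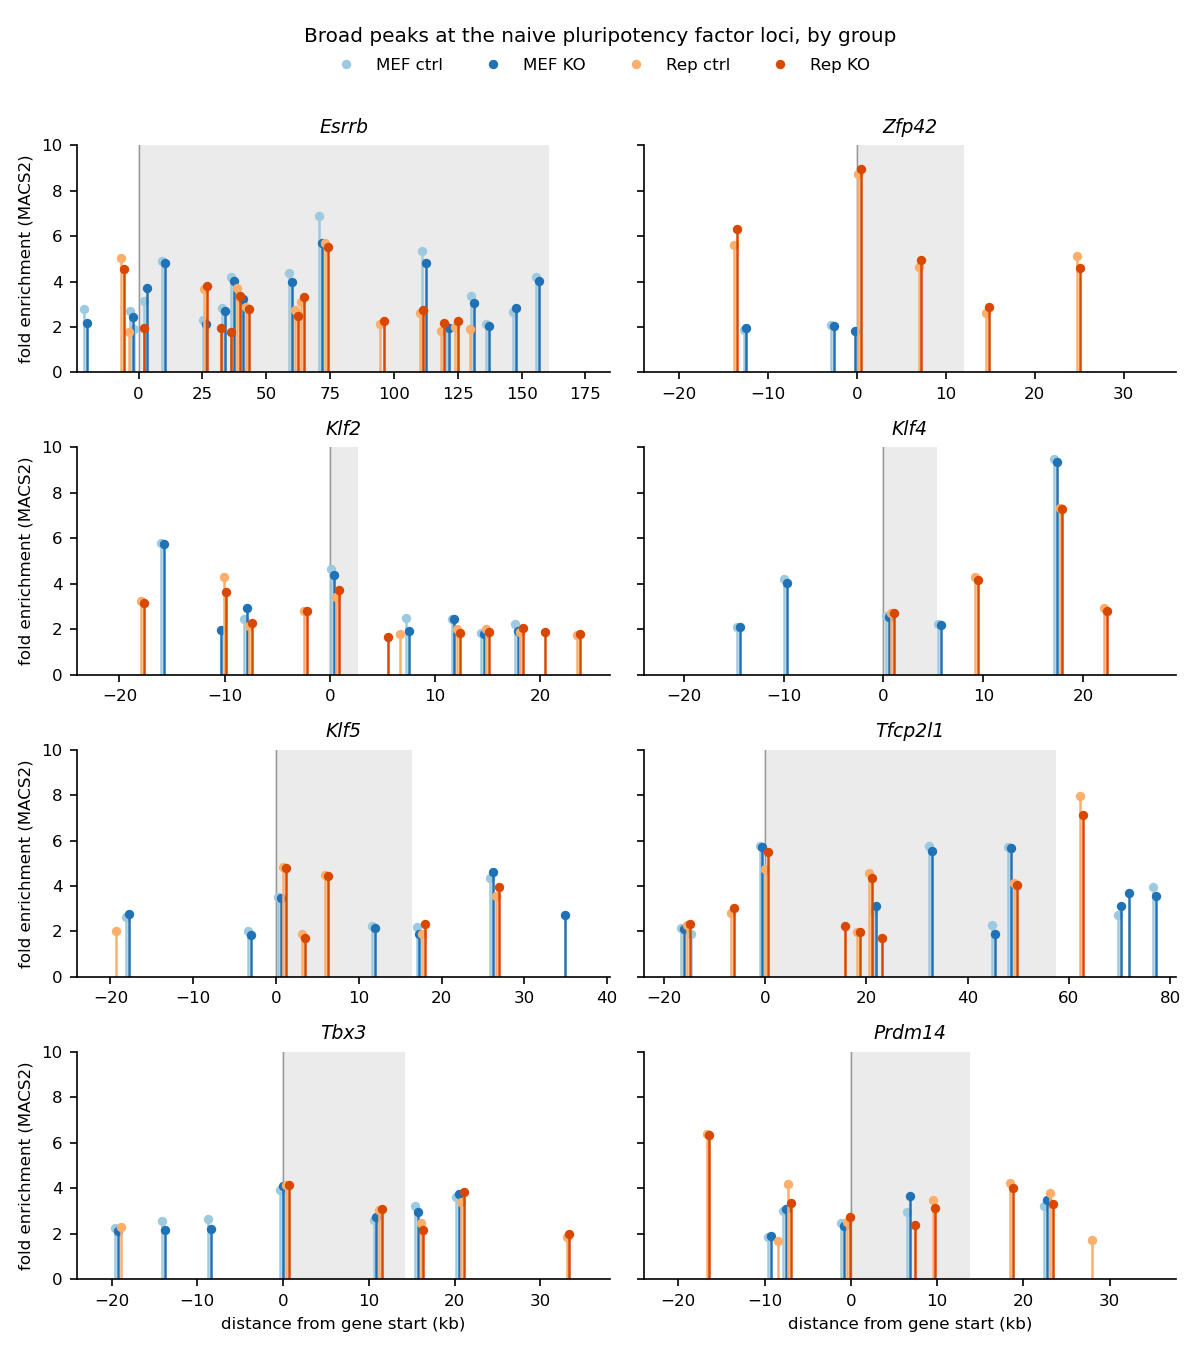
Broad peaks at the 8 loci, with the MACS2 fold enrichment (y axis) against the distance from the gene start in kb along the direction of transcription (x axis), by group (ctrl is control, Rep is reprogramming). Grey bands are gene bodies, lollipops of the 4 groups are set slightly apart, and the highest reprogramming peaks without a MEF control peak stand at the Zfp42 start (8.76 in the reprogramming control) and past the end of Tfcp2l1 (7.95).

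Among the start sites, Zfp42 went from closed to among the most open in the genome, while those of the other 7 genes had a peak in fibroblasts already. Zfp42 encodes REX1, a zinc finger protein used as a marker of naive cells. No peak was listed at its start in MEF control. With the MEF KO guide the fold was 1.81, at the 4.5th percentile of that list. It was 8.76 in reprogramming control and 8.95 in its KO, at the 99.8th and 99.9th percentiles. The start was thus open to a like extent in control and KO reprogramming cells, and near the lower end of the list in MEF KO.

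All 5 reprogramming control peaks at Zfp42 lacked a MEF control peak, and 4 of the 5 reprogramming KO peaks lacked a MEF KO peak, the exception being the start site. The intervals with the next highest folds in control lay 13.9 kb upstream of the start (5.59 in control, 6.31 in KO) and 12.6 kb past the gene end (5.12 and 4.59), with no peak in either MEF list. An intronic interval 6.8 kb from the start had 4.62 in control and 4.94 in KO, and no MEF peak either. Conversely both MEF control peaks of the locus, 2.5 kb upstream (2.09 in MEF control, 2.03 in MEF KO) and 12.3 kb upstream (1.87 and 1.94), had none in reprogramming.

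The bases before the Zfp42 start and the centre of its upstream interval are shown because they underlie the strongest gains of the locus. Capitals mark matches, on either strand, to ATGCNAAT (OCT), ACAANG (SOX), GGGNGTGG (KLF), TGANTCA (AP-1), AAGGTCA (ESRRB) and AATCCCAGC, a stretch of the B1 family of short interspersed elements (SINEs). The first is the RefSeq sequence of 250 bases upstream of the start at chr8:43307010-43307259 of GRCm38.p6, minus strand, and the second is the central 300 bases of the interval, chr8:43320780-43321079, plus strand.
Zfp42 start: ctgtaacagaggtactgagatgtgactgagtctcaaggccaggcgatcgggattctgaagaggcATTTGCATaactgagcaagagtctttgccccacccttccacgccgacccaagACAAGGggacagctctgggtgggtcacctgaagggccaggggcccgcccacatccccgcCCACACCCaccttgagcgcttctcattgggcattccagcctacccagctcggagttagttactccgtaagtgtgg
Zfp42 upstream: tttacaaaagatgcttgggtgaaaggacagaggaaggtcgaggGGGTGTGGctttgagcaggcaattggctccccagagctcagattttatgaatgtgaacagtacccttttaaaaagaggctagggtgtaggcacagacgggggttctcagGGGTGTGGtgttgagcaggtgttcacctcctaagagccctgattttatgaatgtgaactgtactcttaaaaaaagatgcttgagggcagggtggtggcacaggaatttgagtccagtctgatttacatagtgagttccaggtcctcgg

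The start sequence held 1 OCT match, 1 SOX match and 1 KLF match, and the upstream sequence held 2 KLF matches and none of the others. Among 32851 RefSeq upstream sequences of 250 bases, OCT occurred in 2.86%, SOX in 36.3% and KLF in 15.9%. In the central 300 bases of all merged intervals KLF occurred in 11.8%. A match is a description of the letters and does not show binding. RefSeq sequences were matched for 5 of the 8 genes.

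The start sites of the other members changed less in fold than that of Zfp42. Folds were lower overall in reprogramming, with a median log2 ratio over MEFs of -0.22 in control and -0.207 in KO over all intervals with a peak in both lists, and -0.181 and -0.058 at the loci. Klf5, a Krüppel-like factor of the epiblast and trophectoderm, had start-site folds of 3.52 and 3.49 in the MEF control and KO groups and of 4.84 and 4.78 in the reprogramming ones. Klf2, a factor of naive cells that also acts in endothelium and T cells, went from 4.65 in MEF control and 4.40 in MEF KO to 3.403 and 3.735 in the reprogramming groups, a difference that in KO was about that of all intervals. Klf4, itself 1 of the induced factors, stayed between 2.54 and 2.73 in the 4 groups, in a merged interval of 4552 bp that reached from before the start into the exons shared with the cassette.

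Tfcp2l1, a CP2 family factor downstream of LIF and STAT3, had start-site folds of 5.74 and 5.72 in MEFs with the control and Zfp266 guides, and of 4.77 and 5.497 in reprogramming. The start of Tbx3, a T-box factor that also acts in limb and mammary development, lay between 3.93 and 4.14 in the 4 groups. Prdm14, a PR domain protein that holds back FGF signalling and de novo DNA methylation, had the lowest start-site level of fibroblasts after Zfp42, with 2.46 and 2.35 in MEFs and 2.52 and 2.74 in reprogramming, control before KO.

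Esrrb, an orphan nuclear receptor, had its openness away from the gene start. Its first start site had a peak of 1.92 in MEF control and, 0.3 kb into the gene, one of 1.96 in reprogramming KO, and none in the other lists. A start site 60.8 kb inside the gene had folds of 4.36 and 3.96 in the MEF groups and 2.74 and 2.48 in the reprogramming groups. Another, 109.6 kb inside the gene, had no MEF peak and folds of 2.62 and 2.74 in reprogramming control and KO. The first of these internal starts was the more open of the pair in MEFs, and in reprogramming KO the order was turned.

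**Figure D3:**
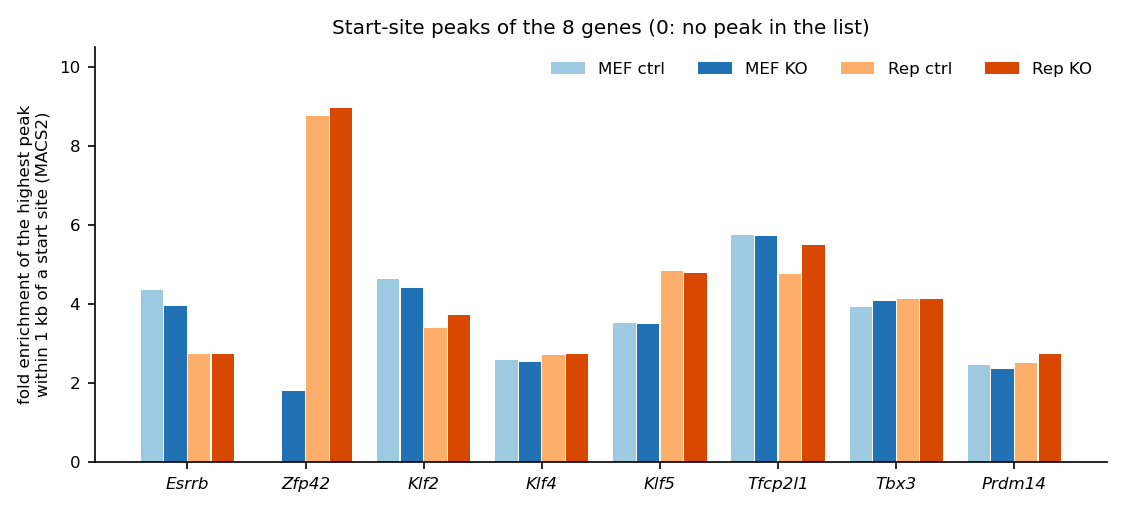
Fold enrichment (y axis, MACS2) of the highest peak within 1 kb of any annotated start site of each gene (x axis) in the 4 groups (bars; ctrl is control, Rep is reprogramming), with 0 where the list has no peak. Zfp42 rises to 8.76 and 8.95 in the reprogramming groups, and Klf4 lies between 2.54 and 2.73 in all 4.

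Of the 26 intervals in both reprogramming lists alone, 1 lay within 1 kb of a start site of a member. Over all merged intervals of this kind, 3715 of 74990 lay within 1 kb of a protein coding start site. Past the end of Tfcp2l1 by 4.8 kb stood the second highest gained peak of the 8 loci, with no MEF peak and a fold of 7.95 in reprogramming control and 7.11 in reprogramming KO, at the 99.5th and 98.5th percentiles of those lists. Within the first part of the gene, 20.2 kb from its start, an intronic interval gained a peak of 4.59 and 4.37, and 7.1 kb upstream another of 2.81 and 3.05. In the opposite direction, a MEF peak in the intron 33.3 kb from the start (5.76 in control, 5.56 in KO) had none in reprogramming, and neither had one 20.2 kb past the gene end (3.94 and 3.57). Other distal intervals of the locus kept a peak in all 4 lists, as 48.9 kb inside the gene (5.72 and 5.66 in MEFs, 4.12 and 4.05 in reprogramming).

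The centre of the gained interval, chr1:118689783-118690082 of GRCm38.p6, plus strand, is shown because it was the strongest distal gain, with the same motifs in capitals.
Tfcp2l1 downstream: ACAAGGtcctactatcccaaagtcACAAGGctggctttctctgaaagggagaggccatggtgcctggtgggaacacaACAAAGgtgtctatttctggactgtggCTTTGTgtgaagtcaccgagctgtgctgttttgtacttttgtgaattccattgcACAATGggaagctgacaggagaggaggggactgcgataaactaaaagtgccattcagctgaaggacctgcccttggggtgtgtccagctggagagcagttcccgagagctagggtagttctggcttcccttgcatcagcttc

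It held 5 SOX matches and none of the other motifs. SOX matches are common, in 53.2% of all merged intervals over this length and in 63.0% of those found in both reprogramming lists alone. At the 8 loci, 16 of 26 intervals found in both reprogramming lists alone held one (61.5%), against 7 of 28 found in both MEF lists alone (25.0%), where the share over all such intervals was 49.3%, and 6 of 24 found in all 4 lists (25.0%), beside 46.4% of all such intervals. Over the central 1000 bases the shares were 22 of 26 (84.6%), 23 of 28 (82.1%) and 17 of 24 (70.8%), beside 93.8%, 90.0% and 86.4% over all such intervals. AP-1 matches, which mark many fibroblast enhancers, were held by 4 of 26 and 6 of 28, beside 15.1% and 31.6% over all intervals of these kinds.

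At Prdm14, 3 intervals had a peak in both reprogramming lists alone. The highest lay 16.9 kb upstream, within the neighbouring gene Ncoa2, with a fold of 6.37 in reprogramming control and 6.34 in KO, at the 96.4th and 96.5th percentiles. The others lay 4.6 kb past the gene end (4.22 and 3.99) and in an intron 9.3 kb from the start (3.5 and 3.11). An intronic MEF peak 7.0 kb from the start (2.97 in control, 3.66 in KO) had no partner in the reprogramming control list and one of 2.38 in the KO list. All 3 gained peaks had a slightly lower fold in KO than in control.

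Esrrb, the longest gene of the set at 160.5 kb, held 28 of the 99 intervals, and 11 of them were in both MEF lists alone and 7 in both reprogramming lists alone. The highest gain was 7.5 kb upstream of the start, with 5.02 in reprogramming control and 4.56 in KO, followed by intronic intervals 25.0 kb (3.68 and 3.80) and 63.1 kb (3.09 and 3.33) from the start. The highest MEF peaks without a partner were intronic, 113.0 kb (5.32 in control, 4.80 in KO) and 10.9 kb (4.90 and 4.80) from the start. Its highest peak in every group, 72.4 kb inside the gene, had 6.90 and 5.69 in MEFs and 5.68 and 5.51 in reprogramming, control before KO.

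Among the KLF genes, Klf4 held the highest peak of any fibroblast group at the 8 loci, 12.2 kb past the gene end, with 9.50 in MEF control and 9.34 in MEF KO, and 7.32 and 7.30 in reprogramming. Between it and the gene, 3.7 kb past the gene end, lay an interval with no MEF peak and 4.31 and 4.16 in reprogramming, and 16.7 kb past the end lay another with 2.95 and 2.80. MEF peaks 9.5 kb upstream (4.21 and 4.05) and 0.6 kb past the end (2.23 and 2.19) had no partner in reprogramming. At Klf4 every interval had the same presence or absence of a peak in KO as in control.

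Klf5 gained an interval over an exon 5.8 kb from the start, with 4.48 in reprogramming control and 4.45 in KO, and a weak one over an exon 3.0 kb from the start (1.87 and 1.72). Another, 19.5 kb upstream, was in the reprogramming control list alone (2.01). A MEF peak 17.6 kb upstream (2.63 in control, 2.77 in KO) had none in reprogramming. Klf2 gained intervals over MEF control 10.2, 18.0 and 2.6 kb upstream, with 4.29, 3.25 and 2.81 in reprogramming control and 3.64, 3.15 and 2.78 in KO. It lacked in reprogramming the MEF peak 15.6 kb upstream (5.77 in control, 5.75 in KO) and the one 5.0 kb past the gene end (2.47 and 1.93). Tbx3 had the fewest gains, with 1 interval in both reprogramming lists alone, 18.8 kb past its end (1.85 and 1.97), and MEF peaks without a partner 8.2 kb (2.64 and 2.22) and 13.6 kb upstream (2.57 and 2.16), both within the antisense gene Tbx3os1.

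Where a peak was present in KO and control, its fold barely differed. Over 52 intervals with a peak in both reprogramming lists, the median log2 ratio of KO over control fold was -0.005, from -0.305 to 0.302, with 25 higher and 27 lower, and the median over all intervals was -0.02. Over 56 intervals with a peak in both MEF lists the median was -0.038, from -0.357 to 0.303, with 15 higher and 41 lower, and that over all intervals -0.03. These pooled values have no replicate error.

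The deposited interval tables compare KO with control by library. In reprogramming, 1522 intervals were listed as more open in KO and 86 as more closed, which is 0.557% and 0.0315% of the 273256 merged intervals. In MEFs the counts were 479 and 1, or 0.175% and 0.000366%. At the 8 loci 2 intervals were listed in reprogramming, both at Klf2, and 2 in MEFs, 1 at Esrrb and 1 at Klf5. All 4 were more open in KO. The other 95 of the 99 intervals were listed in neither context, among them every start site and every other gained interval described above. Counts of 2 are too few to set against those percentages. Since the tables hold only intervals chosen for a difference in the same libraries, edgeR's quasi-likelihood test with Benjamini-Hochberg adjustment over 273256 tests, applied here, is not independent of that choice. The KO and control libraries did not overlap in 1608 of the 1608 listed reprogramming intervals and in 479 of the 480 listed MEF intervals, so separation of the libraries is a property of the tables and no support for the 4 intervals described next. The test called 94.7% of the listed reprogramming intervals and 99.4% of the listed MEF intervals more open in KO.

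Within the 20 kb windows Klf2 was the only member with intervals listed as more open in reprogramming KO, 2 in its upstream region. Over the 8 loci such intervals numbered 0 in the gene bodies alone and 3 with 50 kb windows. The interval 10.2 kb upstream of Klf2 had normalised counts of 282.69, 293.94 and 297.62 in the reprogramming control libraries and of 372.35, 430.56 and 393.74 in the KO libraries. The KO libraries were all above the control libraries, with means of 398.88 ± 29.4 and 291.42 ± 7.78 (SD, n = 3 each). Separation of the libraries, in either direction, held in all 1608 listed intervals, of which 1522 were higher in KO. The edgeR log2 fold change was 0.45 ± 0.08 (SE; adjusted p = 1.41e-05). Its mean over the 6 MEF libraries, worked out from the mean over all 12, was 32.8, so the reprogramming control mean was 8.89 times that of MEFs.

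The neighbouring interval, 7.8 kb upstream, chr8:72310457-72312047, had 149.72, 165.12 and 150.11 in the control libraries and 214.08, 222.66 and 249.26 in the KO libraries. The libraries again did not overlap, as throughout the table, with means of 229 ± 18.3 and 155 ± 8.78 (SD, n = 3 each). The edgeR log2 fold change was 0.54 ± 0.10 (SE; adjusted p = 8.53e-05). The MEF mean was 51.1, against which the reprogramming control mean was 3.03-fold higher. Both calls held when any 1 library was left out. Both were lost on raw counts with no scaling (log2 fold changes of 0.32 and 0.41, edgeR adjusted p = 1.00), and both signs turned with TMM factors over the listed intervals (-0.53 and -0.43), which centre the list by construction.

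In the peak lists the intervals differed from each other. At 10.2 kb the fold was lower in reprogramming KO (3.64) than in control (4.29), while the KO peak was longer, 1572 bp against 1099 bp, and a short peak of 216 bp was present in MEF KO (1.97) and none in MEF control. At 7.8 kb the folds were 2.16 in reprogramming control and 2.29 in KO, with lengths of 920 and 1090 bp, and 2.45 and 2.93 in MEF control and KO.

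The centre of the interval 7.8 kb upstream of Klf2 is shown because it carried a KO difference in reprogramming. It lies at chr8:72311103-72311402 of GRCm38.p6, plus strand, in intergenic sequence, and capitals mark the motifs named above.
Klf2 7.8 kb upstream: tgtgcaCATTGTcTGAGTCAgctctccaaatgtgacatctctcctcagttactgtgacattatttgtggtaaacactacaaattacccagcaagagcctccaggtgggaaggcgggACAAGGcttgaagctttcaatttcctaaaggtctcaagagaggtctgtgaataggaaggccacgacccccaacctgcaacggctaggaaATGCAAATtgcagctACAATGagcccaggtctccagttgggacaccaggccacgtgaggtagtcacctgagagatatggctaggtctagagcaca

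It held 1 OCT match, 3 SOX matches and 1 AP-1 match, and no base of it was masked as a repeat in the reference. In its central 1000 bases the interval held the B1 stretch 2 times, at 452 and 453 bases from the centre. The one at 452 bases lay outside both reprogramming peaks, and the one at 453 bases lay inside both. Over that length the stretch occurred in 8.72% of all merged intervals, 10.4% of those in both reprogramming lists alone and 50.9% of the listed reprogramming intervals. At the 8 loci 13 of the 99 intervals held it (13.1%).

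**Figure D4:**
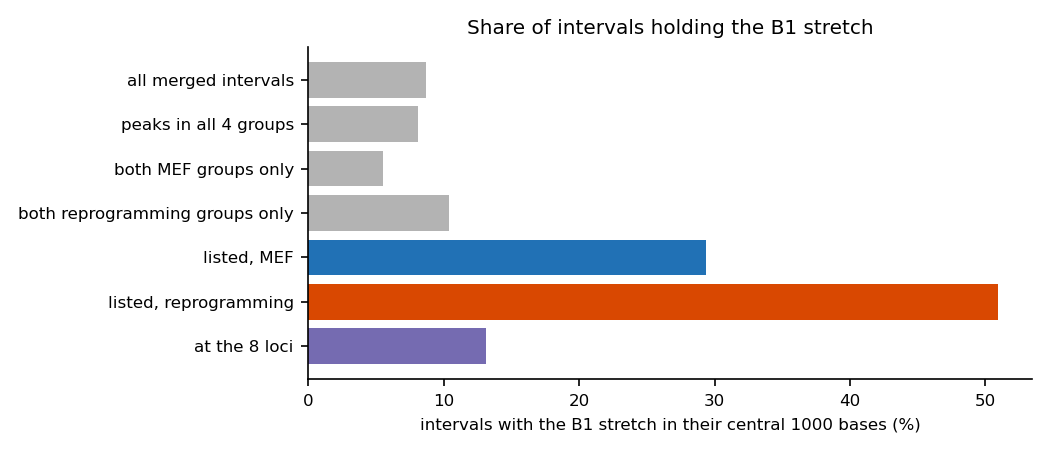
Share of intervals, in percent (x axis), that hold the B1 stretch on either strand within their central 1000 bases, for all merged intervals, for intervals grouped by the lists that have a peak there, for the intervals listed as differing between KO and control, and for the 99 intervals at the 8 loci (y axis). The share is 50.9% of the listed reprogramming intervals, 29.4% of the listed MEF intervals and 13.1% at the 8 loci.

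In MEFs the interval with the larger difference lay 18.7 kb past the end of Klf5, chr14:99333194-99334255. Its normalised counts were 12.22, 20.16 and 13.38 in MEF control and 43.44, 50.05 and 50.48 in MEF KO, from 14 to 22 and from 50 to 73 raw reads. The groups did not overlap, as in 479 of 480 listed MEF intervals, with means of 15.2 ± 4.29 and 48.0 ± 3.95 (SD, n = 3 each), and the edgeR log2 fold change was 1.67 ± 0.23 (SE; adjusted p = 1.97e-09). It had a peak in the MEF KO list alone, with a fold of 2.72. Its mean over the 6 reprogramming libraries was 16.5, near the MEF control mean.

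The first 300 bases of this interval, chr14:99333194-99333493 of GRCm38.p6, plus strand, are shown in place of its centre because they hold its only B1 stretch, 452 bases from the centre.
Klf5 downstream: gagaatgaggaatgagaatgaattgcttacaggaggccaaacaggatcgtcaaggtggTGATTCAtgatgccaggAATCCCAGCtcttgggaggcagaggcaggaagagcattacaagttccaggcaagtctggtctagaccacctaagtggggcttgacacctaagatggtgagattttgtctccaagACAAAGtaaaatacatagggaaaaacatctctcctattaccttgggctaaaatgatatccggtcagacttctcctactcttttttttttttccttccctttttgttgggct

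It also held 1 AP-1 match and 1 SOX match, and no matches in the printed sequences overlapped each other.

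The other MEF interval lay in an Esrrb intron, 41.6 kb from the gene start, chr12:86401959-86403471. The normalised counts were 73.33, 79.71 and 84.13 in MEF control and 118.83, 132.34 and 120.15 in MEF KO, with means of 79.1 ± 5.43 and 124 ± 7.44 (SD, n = 3 each). The libraries did not overlap, as in nearly the whole MEF table, and the edgeR log2 fold change was 0.66 ± 0.14 (SE; adjusted p = 0.000765). Without MEF control replicate 1 the log2 fold change was 0.601 (edgeR adjusted p = 0.0675) and without MEF KO replicate 2 it was 0.602 (adjusted p = 0.0777), so the size was kept and the call was lost. It held without any 1 of the other 4 libraries. On raw counts the call was lost too (log2 fold change 0.72, adjusted p = 1.00), and with TMM factors over the listed intervals the Esrrb value was -0.39 and the Klf5 value 0.62, neither past the threshold. The mean over the reprogramming libraries was 149, which is 1.88 times the MEF control mean, while the peak fold was 2.88 in reprogramming control and 3.29 in MEF control over stretches of 1513 and 526 bp. In MEF KO the peak fold was 3.21 over 1085 bp, slightly lower than in MEF control although the counts were higher. None of the 6 motifs occurred in its central 300 bases, and the B1 stretch was absent from its central 1000 bases.

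**Figure D5:**
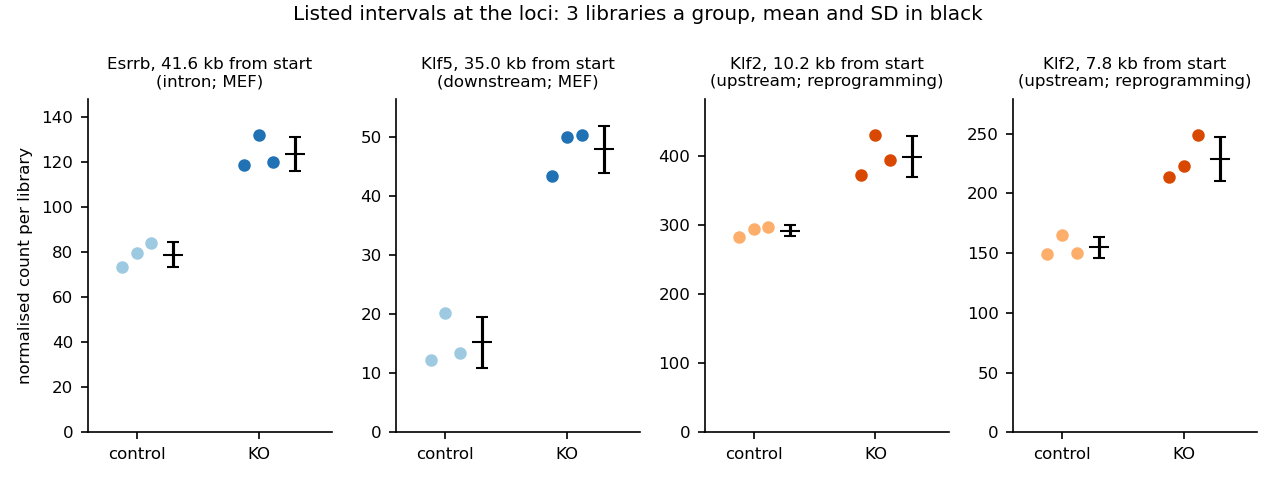
Normalised counts per library (y axis, from 0) of the 4 listed intervals at the 8 loci, in the control and KO libraries of the context in which each was listed (x axis), with the mean and SD of 3 libraries in black. In each panel the KO libraries lie above the control libraries, with values from 372.35 to 430.56 against 282.69 to 297.62 at Klf2 10.2 kb upstream. Separation of the libraries, in either direction, held in 1608 of 1608 listed reprogramming and 479 of 480 listed MEF intervals.

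Peaks in MEF KO without a MEF control peak were 4 at the 8 loci, and are named here after their values were seen. They were the Zfp42 start (1.81), Klf2 10.2 kb upstream (1.97), Klf5 18.7 kb past its end (2.72) and an interval 15.0 kb past the end of Tfcp2l1 (3.67). The first and second of these were also gained in reprogramming, with higher folds, and the others were in the MEF KO list alone. The 2 peaks of MEF control alone were the first Esrrb start (1.92) and an interval 13.8 kb upstream of Tfcp2l1 (1.87).

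The gene whose start-site folds over the 4 groups were nearest to those of a member, among 17183 protein coding genes with a start-site peak, was Clta for Klf2 (distance 0.045 on the log2(fold + 1) scale), Ssbp4 for Klf4 (0.0384), Dact3 for Klf5 (0.0552), Clstn1 for Esrrb (0.0437), Dse for Tfcp2l1 (0.0282), Tspan11 for Tbx3 (0.0153) and Zfp462 for Prdm14 (0.0339). Zfp42 had no near neighbour. The nearest was Serpinb7, at a distance of 0.849, with no peak in MEF control and folds of 2.35, 5.31 and 5.97 in MEF KO, reprogramming control and reprogramming KO.

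The other genes of the pluripotency circuit moved in different directions at their start sites from MEF control to reprogramming control, as counts with no test. Over the 17024 protein coding genes with a start-site peak in either list, 24.2% were higher and 75.8% lower. All 4 core genes had a higher fold, among them Nanog (no MEF peak, 2.66 in reprogramming control and 2.40 in KO), Pou5f1 (2.23 to 3.03) and Sox2 (3.82 to 3.91). Sall4 went only from 2.59 to 2.62. Pou5f1 and Sox2 are also in the cassette, so reads from it cannot be told apart from reads of their exons. Of 6 genes of the LIF pathway 1 was higher and 5 lower, with Jak1 going from 7.16 to 5.47, Lifr, the LIF receptor, from 3.81 to 3.32 and Stat3 from 4.96 to 5.37. Of 8 other naive genes 3 were higher and 5 lower, Nr0b1 from no peak to 3.01, Tdgf1 from 3.38 to 4.51 and Dppa3 from 1.76 to no peak. Of 6 formative genes, which mark the state that follows the naive one, 1 was higher and 5 lower, as for Dnmt3b (6.55 to 4.20), Pou3f1 (5.45 to 3.33) and Sox3 (3.47 to 2.42).

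Among 14 other KLF genes 4 were higher and 10 lower. Klf17, active in the early embryo, went from no MEF peak to 5.12 in reprogramming control and 5.27 in KO, Klf7 from 5.03 to 6.70 and Klf1, an erythroid factor, from 7.05 to 4.26. Intervals listed as more open in reprogramming KO lay within 20 kb of Pou5f1 and Sall4 (3 intervals), Pim1 (1), Nanos3, Tdgf1 and Tet2 (4), and Klf12, Klf13 and Klf9 (2 more open, 1 more closed). None lay near the 6 formative genes, where the reprogramming KO list had 35 peaks, too few to read from a listed share of 0.557%. Among the cell identity markers, more open intervals also lay near the fibroblast gene Thy1 (1), the epithelial gene Ocln (1) and the pluripotent cell genes Fbxo15 and Pou5f1 (3).

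Start sites are often open whether or not a gene is expressed, so the cell identity lists were counted at start sites and over the loci. At the loci of the fibroblast markers 64 of 115 MEF control peaks (55.7%) had no reprogramming control peak, and 25 of 78 reprogramming control peaks (32.1%) had no MEF control peak. At the loci of the pluripotent cell markers these were 11 of 35 (31.4%) and 18 of 41 (43.9%), beside 54.8% and 55.9% of all peaks. Of 10 fibroblast markers 10 had a start-site peak in MEF control and 9 in both reprogramming groups, Postn being the exception. Of 7 pluripotent cell markers 5 had one in each group, with Dppa4 in none, Nanog in reprogramming alone and Dppa5a in MEFs alone. All 6 epithelial markers had one in each group. Of 4 blood markers 2 had one in the MEF groups and 3 in the reprogramming groups, with Spi1 in none and Ptprc in reprogramming alone. Of 4 endothelial markers 4 had one in the MEF groups and 3 in the reprogramming groups, Cdh5 being the exception. Their part in the values above was not tested. The start of Zfp266 was open in all groups, at folds from 4.52 to 5.46, which does not check a knockout made by an sgRNA.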

How the data were processed

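Omni-ATAC-seq libraries (12, in 4 groups of 3) were grouped by the sample titles. According to the submitters' processing notes and the study's methods, the authors trimmed reads with cutadapt, aligned them with BWA to GRCm38.p6, removed duplicates marked with Picard and called broad peaks with MACS2. The methods describe peaks called per sample at an FDR of 0.1, while the deposited lists hold 1 set of merged-replicate peaks per group. The processing notes name no versions. The deposited peak lists give a fold enrichment (a ratio) and a -log10 q-value. The deposited tables, filtered by the authors at an FDR of 0.05, give raw read counts of the listed intervals and a normalised signal by the authors, which is each count over a library size factor from DESeq2, with its mean over all 12 libraries. They also hold the authors' fold changes, standard errors and p-values for control over KO, which were not used.

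Peaks were assigned by overlap with the gene body extended by 20 kb (GENCODE M21; 0 of 661623 peaks ran past a chromosome end), and counted as shared at an overlap of 1 bp or more. The lists of all groups were merged into 273256 intervals, which held all 2088 listed rows, and this number was taken as the number of tests. Listed intervals were retested with edgeR 4.0.16 in R 4.3.3 (quasi-likelihood, two-sided, Benjamini-Hochberg, threshold 0.05), scaled by size factors recovered as raw over normalised count, which ran from 0.630 to 1.46. The procedure was tested on simulated data. Libraries held 33936 to 86490 reads in the listed MEF intervals and 141616 to 324141 in the listed reprogramming intervals, which is not their depth. The mean of the other context was worked out by subtraction, which held at the 70 intervals listed in both tables. Shares have 95% Wilson intervals. Named were, for each member, the start-site peak, the 3 highest reprogramming peaks without a MEF peak of the same guide, the 2 highest MEF peaks without a reprogramming peak, and each listed interval. Motifs were fixed strings in the RefSeq genome, GRCm38.p6, and the sequence of 1 listed interval is not reported here. Alternatives were DESeq2 1.42.0, other scalings, a low-count filter, a replicate block, each library left out, other windows, stricter peaks and 50% reciprocal overlap. The members and gene lists were chosen with earlier results of these data known.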

Additional observations from a re-analysis of the deposited data

How the results depend on the processing

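With TMM factors computed over the listed intervals alone, the log2 fold change was -0.53 and -0.43 at Klf2 10.2 and 7.8 kb upstream (edgeR adjusted p = 5.89e-07 and 0.0185), -0.39 at Esrrb and 0.62 at Klf5 (adjusted p = 1.00 each), and 0 intervals were more open in either context. That choice centres by construction lists that nearly all go one way, and moved the median log2 fold change of the listed intervals from 0.995 to 0.024 in reprogramming and from 1.08 to 0.033 in MEFs. On raw counts with no scaling the values were 0.32 and 0.41 at Klf2 and 0.72 at Esrrb (adjusted p = 1.00 each), all in the direction reported, and 0 intervals in reprogramming and 1 in MEFs were more open. With each library left out in turn, the log2 fold change ran from 0.39 to 0.51 and from 0.48 to 0.59 at Klf2, from 1.504 to 1.905 at Klf5 and from 0.60 to 0.70 at Esrrb, and the count in MEFs from 1 to 2. In the gene body alone 0 intervals in reprogramming and 1 in MEFs were more open. DESeq2, the low-count filter and the 50 kb window changed no call, and at 50 kb 1 listed interval at Zfp42 was added.

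Same-numbered control and KO libraries correlated at 0.214, 0.138 and 0.0428 in MEFs and at 0.0368, 0.101 and 0.0812 in reprogramming, and the labels give no shared batch, so they share only a number. With the replicate block the log2 fold changes were 0.46 and 0.55 at Klf2, 1.65 at Klf5 and 0.65 at Esrrb, and the counts stayed at 2 and 2.

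With 50% reciprocal overlap the shares without a partner were 73.3% and 72.9% (control, reprogramming against MEF and the reverse), 68.9% and 69.4% (KO), 19.4% of MEF KO peaks and 16.9% of MEF control peaks, and in reprogramming 23.0% of KO peaks and 21.7% of control peaks. At a -log10 q of at least 5, 0% of reprogramming KO peaks lacked a control peak and 2.44% of control peaks a KO peak, while in MEFs the shares rose to 10.0% of KO peaks and 10.3% of control peaks. In the gene body alone 3.85% of reprogramming control peaks lacked a KO peak and 0% of MEF KO peaks a control peak. Of 102 alternative values 75 kept their direction and call or range. The depth of the libraries is not known from these files, and peak values have no replicate error.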
